A study of Mus musculus with 71 samples.

Results

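Galectins are lectins that bind beta-galactoside sugars on glycoproteins and glycolipids, and 4 of them, with the galectin-3 binding protein, were followed here in mouse blood. The members were taken by gene symbol: Lgals3 (galectin-3, Gal-3), Lgals1 (galectin-1), Lgals9 (galectin-9), Lgals8 (galectin-8) and Lgals3bp (galectin-3 binding protein). All 5 were found among the 10508 genes of the deposited normalized table and among the 55416 genes of the count table, and all 5 passed the filter on low values that had been applied to the normalized table. Lgals3 encodes the target of the antibodies given to some of the mice. On GRCm39, Lgals3 lies at chr14:47605208-47623624 on the plus strand, Lgals1 at chr15:78810875-78814670 on the plus strand, Lgals9 at chr11:78853800-78875798 on the minus strand, Lgals8 at chr13:12454282-12479840 on the minus strand and Lgals3bp at chr11:118280716-118292918 on the minus strand. The annotation gives each as protein coding.

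RNA sequencing was performed on the whole blood of 71 mice in 6 groups, and the study's methods describe female Balb/c AnNRj mice. In this model of systemic sclerosis, mice enter at 6 weeks of age and receive hypochlorous acid (HOCl) into the skin on 5 days per week for 6 weeks. The Ctrl group (11 mice) received PBS in place of HOCl, and the HOCl group (12 mice) received HOCl with no antibody. The D11 and E07 groups (12 mice each) received HOCl and an anti-Gal-3 monoclonal antibody of that name, a human IgG1 with the LALA change in its constant part, under the skin at 20 mg/kg every 5 days. The D06 and BPR21 groups (12 mice each) are labelled as HOCl mice with an agent of that name. What these 2 agents are and how they were dosed is not given in the sources used here. The methods name neither group, so sex, strain, age and HOCl schedule are not stated for these mice. Groups were housed in separate cages, so cage and group cannot be told apart. Each library is labelled as 1 mouse, and the same mouse number in different groups names different mice.

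Galectins are made without a signal peptide and reach the outside of the cell by an unconventional route, where they crosslink glycans and modulate adhesion, cell death and signalling of leukocytes. Galectin-3 is a product of macrophages and other myeloid cells. Galectin-1 and galectin-9 act on T cells, and galectin-9 and galectin-8 carry a pair of sugar-binding domains in 1 chain, while galectin-8 also marks damaged endosomes. The galectin-3 binding protein is a secreted, heavily glycosylated ligand of galectins, and its gene and Lgals9 are both known to respond to interferon. The RNA of blood reflects both the mixture of its cells and the content of each cell, and in these libraries fewer cells of a type and less RNA per cell cannot be told apart.

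Because Lgals9 and Lgals3bp varied together between mice and followed interferon-stimulated genes, as given further on, their promoters are shown here. The sequences are RefSeq windows of 300 bases, from 250 bases before to 50 bases after the transcription start, given with the position of their exact match on GRCm39. Capitals mark each match to GAAANNGAAA, the core of the interferon-stimulated response element (ISRE), on either strand; N is any base.
Lgals9, chr11:78875701-78876000, minus strand: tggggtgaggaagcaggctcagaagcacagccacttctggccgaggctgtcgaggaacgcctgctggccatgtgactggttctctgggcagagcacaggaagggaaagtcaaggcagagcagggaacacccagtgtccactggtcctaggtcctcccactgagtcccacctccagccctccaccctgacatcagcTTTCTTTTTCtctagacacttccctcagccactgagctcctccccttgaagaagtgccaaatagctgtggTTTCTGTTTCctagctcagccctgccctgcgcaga
Lgals3bp, chr11:118292736-118293035, minus strand: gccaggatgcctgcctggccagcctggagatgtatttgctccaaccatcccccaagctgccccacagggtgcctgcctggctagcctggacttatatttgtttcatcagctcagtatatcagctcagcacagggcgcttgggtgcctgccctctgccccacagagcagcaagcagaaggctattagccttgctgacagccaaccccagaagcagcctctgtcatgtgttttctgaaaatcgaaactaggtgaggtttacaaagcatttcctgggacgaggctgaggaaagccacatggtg
The Lgals9 window holds 2 matches, one from 55 to 46 bases before the start and one from base 16 to base 25 after it, both read on the strand opposite to the one shown. The windows of Lgals3bp, Lgals3 and Lgals8 hold none. Among all 32851 promoter windows of the table, 3.44% hold at least 1 match. The gamma-activated site TTCNNNGAA was found in none of the 4 windows, against 8.3% of all windows. Lgals1 has no entry in the promoter table. A match is a stretch of letters, and binding was not measured.

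Library totals ranged from 11932855 to 15948972 counts per mouse, and every member was counted in all 71 mice. Lgals3 had 498 to 3507 counts per mouse, Lgals9 had 893 to 2175, Lgals1 had 302 to 1847, Lgals3bp had 268 to 1512 and Lgals8 had 96 to 740. The 2 galectin-1 pseudogenes of the count table were at 0 counts in all 71 mice. One HOCl mouse (mouse 8) has counts but no normalized values, so the HOCl group has 12 mice where counts are used and 11 where normalized values are used.

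Levels of different genes were compared as CPM, the count scaled to the total of its library, per kilobase of exon (CPM per kb). Lgals3 had the highest mean over all mice, 59.3 CPM per kb, followed by Lgals9 with 50.3 and Lgals1 with 45.5. Lgals3bp had 9.88 and Lgals8 had 5.36. The upper 3 genes were not cleanly ordered, since Lgals3 was above Lgals9 in 50 of 71 mice and Lgals9 above Lgals1 in 47 of 71. The other steps were seen in every mouse: Lgals1 was above Lgals3bp in 71 of 71 mice and Lgals3bp above Lgals8 in 71 of 71. In the Ctrl mice, Lgals3 ranged from 32.3 to 113 CPM per kb with a median of 75.5, and Lgals8 from 2.07 to 9.28 with a median of 7.00. With library sizes scaled by TMM (edgeR's trimmed mean of M values), the order of the 5 means was the same.

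**Figure D1:**
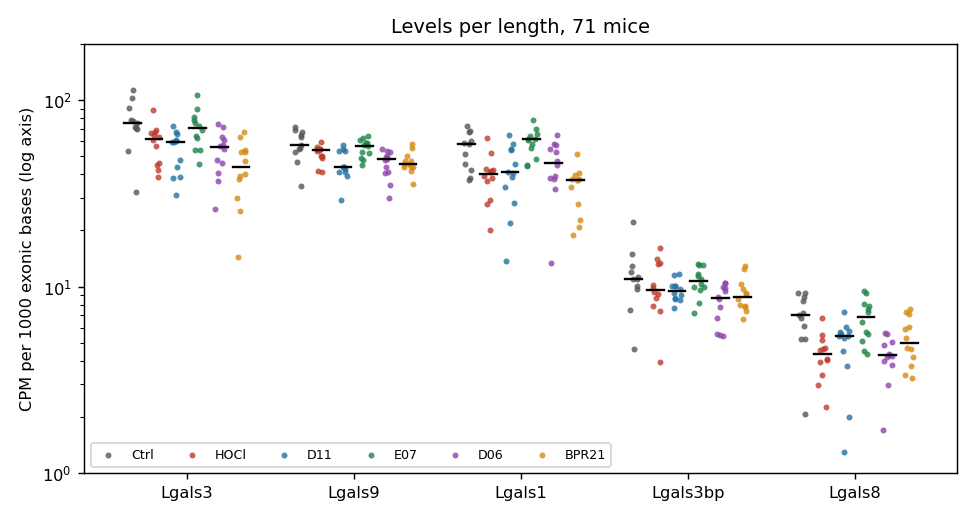
Level of each gene in CPM per kb (log axis) in 71 mice, with 1 point per mouse, colours for the 6 groups and a black line at each group's median. Lgals3, Lgals9 and Lgals1 overlap, while Lgals3bp and Lgals8 lie lower.

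Differences between groups were tested on the deposited vst values, which are on a log2 scale after the authors' variance-stabilizing transformation. A gene was called changed where limma gave a false discovery rate (FDR, Benjamini-Hochberg over all 10508 genes) of at most 0.05 and the fold change was at least 1.3, which is 0.379 on the log2 scale. Over the 6 groups together, limma's F test passed an FDR of 0.05 for Lgals1 (FDR 0.00128), Lgals3 (FDR 0.00992) and Lgals9 (FDR 0.0209). Lgals3bp (FDR 0.449) and Lgals8 (FDR 0.596) did not pass. So 3 of the 5 members passed, where 18.3% of all genes did. Between pairs of groups, 1 of the 75 differences of the 5 members in 15 pairs was called, that of Lgals9 between the E07 and HOCl mice.

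**Figure D2:**
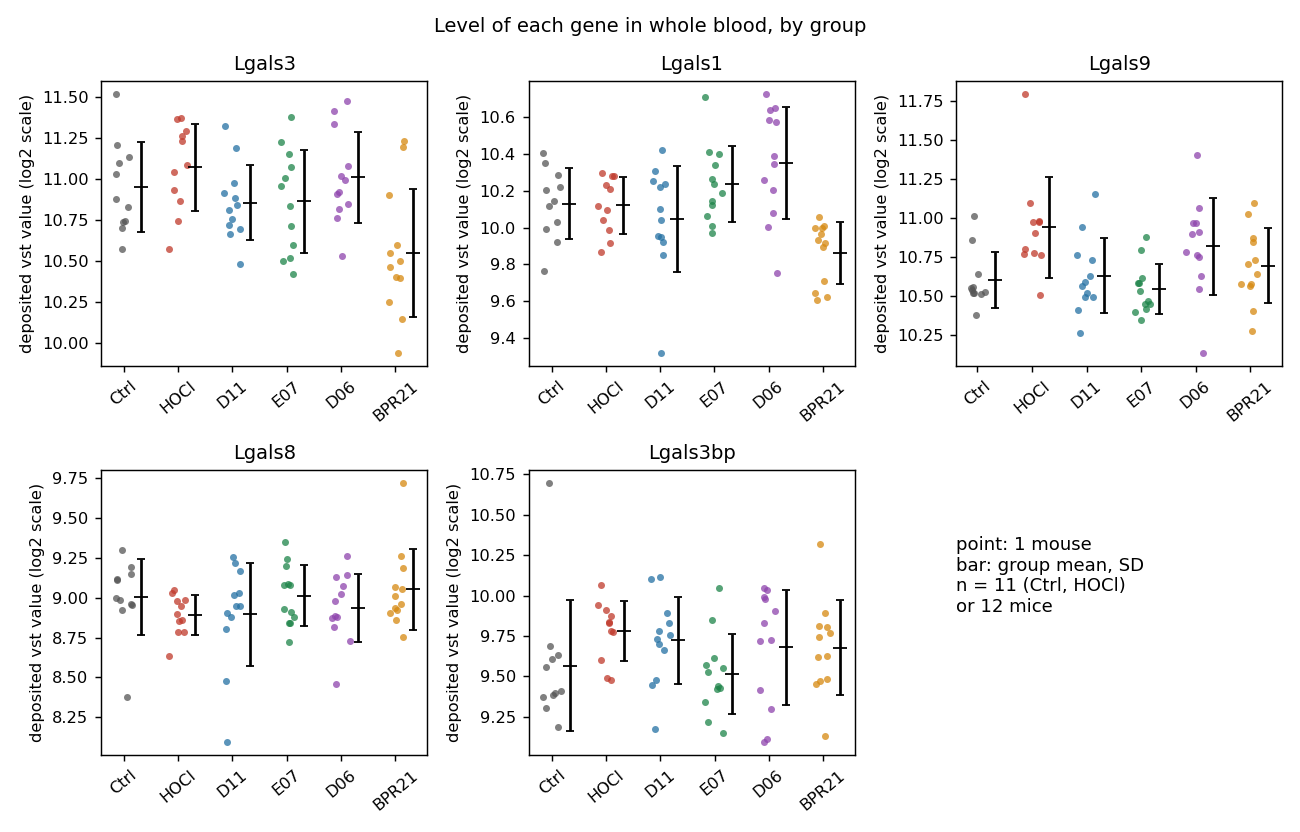
Deposited vst value (log2 scale) of each gene by group, with 1 point per mouse and a bar for the group mean and SD (n = 11 for Ctrl and HOCl, 12 for the others). Lgals9 is highest in the HOCl mice, and Lgals3 and Lgals1 are lowest in the BPR21 mice, with every pair of ranges overlapping.

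Lgals3 was the antibodies' target, and its RNA in blood did not pass the test in any pair of groups (0 of 15 pairs, FDR from 0.0601 to 0.973). In the Ctrl mice its vst value ranged from 10.58 to 11.52 with a median of 10.88. In the HOCl mice it ranged from 10.58 to 11.38 with a median of 11.09. The 2 groups cover almost the same range, and the HOCl mice differed from the Ctrl mice by 0.12 (SE 0.11).
The D11 mice ranged from 10.49 to 11.32 with a median of 10.83. The E07 mice ranged from 10.43 to 11.38 with a median of 10.90. The D06 mice ranged from 10.53 to 11.48 with a median of 10.96. These 3 groups overlap the HOCl mice along nearly all of their range.
The differences from HOCl were -0.22 (SE 0.10) for D11, -0.21 (SE 0.12) for E07 and -0.06 (SE 0.11) for D06.
The BPR21 mice ranged from 9.94 to 11.23 with a median of 10.48. They were the lowest group for Lgals3, and 8 of the 12 lay below the lowest HOCl mouse while 2 lay above the HOCl median. The difference from HOCl was -0.52 on the log2 scale (SE 0.13), a fold of 0.695, with limma's FDR at 0.0601. It passed both thresholds with all 6 groups in 1 fit (FDR 0.01) and with DESeq2 on the counts (FDR 0.0166). Over the alternatives other than leaving out mice, it ranged from -0.55 to -0.48 with FDR from 0.01 to 0.548.
Of 17 monocyte markers, 5 were called lower in the BPR21 mice than in the HOCl mice, beside 0.4% of all genes. None of the 17 markers was called higher, and their median difference was -0.43. Their summed level was 457 to 1495 CPM in the BPR21 mice (median 933) and 679 to 1734 CPM in the HOCl mice (median 1235). Their part in the lower Lgals3 value was not tested.

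Lgals1 had its lowest group median in the BPR21 mice as well. Its vst value ranged from 9.60 to 10.06 with a median of 9.92 in the BPR21 mice, and from 9.87 to 10.30 with a median of 10.12 in the HOCl mice. In the Ctrl mice it ranged from 9.76 to 10.40 with a median of 10.14. All 12 BPR21 mice lay below the HOCl median and below the Ctrl median, although the ranges overlap. The differences of BPR21 were -0.26 from HOCl (SE 0.08, limma's FDR 0.111) and -0.27 from Ctrl (SE 0.08, limma's FDR 0.0923).
In the E07 mice Lgals1 ranged from 9.97 to 10.71 with a median of 10.21. In the D06 mice it ranged from 9.75 to 10.73 with a median of 10.37. In the D11 mice it ranged from 9.32 to 10.42 with a median of 10.07. The D06 mice had the highest median and the D11 mice the lowest single value.
BPR21 mice were 0.38 below E07 mice (SE 0.08, limma's FDR 0.0156), which passed the FDR and fell short of the fold threshold at a fold of 0.77. Of the 12 BPR21 mice, 8 lay below the lowest E07 mouse. On the counts, edgeR called this difference (-0.46, FDR 0.0107), as did DESeq2 (-0.43, FDR 0.000706).
BPR21 mice were 0.49 below D06 mice (SE 0.10), with limma's FDR at 0.061. That difference was called with all 6 groups in 1 fit (FDR 0.00233), with edgeR (FDR 0.0456) and with DESeq2 (FDR 0.00205), but not with edgeR under 3 other filters on low counts (FDR from 0.0588 to 0.0929). Between HOCl and Ctrl mice, Lgals1 differed by -0.01 (SE 0.08).

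Lgals9 was the member whose difference was called. In the Ctrl mice its vst value ranged from 10.38 to 11.01 with a median of 10.54. In the HOCl mice it ranged from 10.51 to 11.80 with a median of 10.90. The HOCl mice lay higher, with 10 of 11 above the Ctrl median and 2 above the highest Ctrl mouse. The difference was 0.34 (SE 0.11), a fold of 1.26, with limma's FDR at 0.0672, so it was not called.
In the E07 mice Lgals9 ranged from 10.35 to 10.88 with a median of 10.50. All 12 E07 mice lay below the HOCl median, and 6 lay below the lowest HOCl mouse. The E07 mice were lower than the HOCl mice by a log2 difference of -0.40 (SE 0.10), a fold of 0.759, with limma's FDR at 0.00907. Against the Ctrl mice, the E07 mice differed by -0.06 (SE 0.07).
In the D11 mice Lgals9 ranged from 10.26 to 11.16 with a median of 10.58, which was -0.31 from HOCl (SE 0.12) and not called. In the D06 mice it ranged from 10.13 to 11.41 with a median of 10.84. In the BPR21 mice it ranged from 10.27 to 11.10 with a median of 10.67. The differences from HOCl were -0.12 for D06 (SE 0.13) and -0.25 for BPR21 (SE 0.12), and neither was called.
The E07 difference in Lgals9 rested in part on HOCl mouse 7, which had the highest vst value of all mice, 11.80. Without that mouse the difference was -0.31 with limma's FDR at 0.00599, which fell short of the fold threshold. HOCl mouse 7 also had the lowest size factor of the HOCl group, 0.46, where a size factor is the scale that DESeq2 gives a library.

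The group medians of Lgals8 in the vst values lay between 8.90 in the HOCl mice and 9.00 in the Ctrl and E07 mice, and over all mice the vst value ranged from 8.10 to 9.72. None of the 15 pairs passed the test (FDR from 0.285 to 0.994), and the differences ran from -0.12 to 0.16. Under total-count scaling Lgals8 passed the F test over the 6 groups (limma's FDR 0.00438), so that 4 of the 5 members passed in place of 3. Most genes passed under that scaling, 7874 of 10503, against 1918 of 10508 in the vst values.

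Lgals3bp ranged from 9.19 to 10.70 in the Ctrl mice with a median of 9.41. In the HOCl mice it ranged from 9.48 to 10.07 with a median of 9.83. All 11 HOCl mice lay above the Ctrl median, but 1 Ctrl mouse had the highest value of all mice, 10.70. The difference was 0.21 (SE 0.13) and was not called. HOCl mouse 8, which has no vst value, had 84.4 CPM of Lgals3bp, against 20.7 to 73.9 CPM in the other HOCl mice.
In the E07 mice Lgals3bp ranged from 9.15 to 10.04 with a median of 9.48. Of the 12 E07 mice, 10 lay below the HOCl median and 6 below the lowest HOCl mouse. The difference was -0.27 (SE 0.09), a fold of 0.831, with limma's FDR at 0.0484, which is past the FDR and short of the fold threshold.
The D11, D06 and BPR21 medians were 9.74, 9.78 and 9.68. Their differences from HOCl lay between -0.10 and -0.06, and none was called.

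In the separate comparisons, no member was called between HOCl and Ctrl mice, where 4.96% of all genes were called. Between E07 and HOCl mice 1 of 5 members was called, and it was lower, beside 7.89% of all genes called in either direction and 7.01% called lower. By FDR alone, 2 of 5 members passed between E07 and HOCl mice, beside 15% of all genes, and 1 of 5 between BPR21 and E07 mice, beside 11.3%. No member was called between D11 and HOCl (0.0571% of all genes called), D06 and HOCl (0.133%) or BPR21 and HOCl (0.638%). Against the Ctrl mice, no member was called for D11 (0.0761% of all genes), E07 (0.00952%), D06 (7.88%) or BPR21 (0.504%). Between the agents, no member was called for E07 against D11 (4.57% of all genes), D06 against E07 (9.76%), BPR21 against E07 (7.26%) or BPR21 against D06 (0.0571%), nor for D06 against D11 and BPR21 against D11, where limma called 0% of all genes. The comparisons with HOCl share the same HOCl mice, and those with Ctrl share the same Ctrl mice.

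The scale of the libraries set the sign of several member values. When each library was scaled to its total count instead (log2 of CPM plus 1), the median of all genes moved to -0.47 between HOCl and Ctrl mice and to 0.49 between E07 and HOCl mice, against -0.02 and 0.02 in the vst values. The share of the called genes that were higher moved from 96.5% to 5.99% between HOCl and Ctrl mice and from 11.1% to 95.3% between E07 and HOCl mice. Between E07 and HOCl mice, Lgals9 then differed by 0.08 (FDR 0.499), while Lgals1 and Lgals8 were called higher with differences of 0.63 and 0.64. Relative to the median of all genes, the differences between E07 and HOCl were -0.41 for Lgals9, 0.14 for Lgals1 and 0.15 for Lgals8, close to the vst values. The same held between HOCl and Ctrl mice, where Lgals9 stood at -0.12 under total-count scaling and at 0.35 relative to the median of all genes.
A ratio of 2 members within 1 library does not depend on this scaling. The log2 ratio of Lgals9 to Lgals8 counts ranged from 1.74 to 3.28 in the 12 HOCl mice with a median of 2.36. In the E07 mice it ranged from 1.45 to 2.39 with a median of 1.73, and in the Ctrl mice from 1.58 to 2.78 with a median of 1.78. The HOCl mice stand higher in this ratio and overlap both other groups. Against Lgals1, Lgals9 also stood higher in the HOCl mice. The log2 ratio of Lgals1 to Lgals9 had medians of -0.85 in HOCl, -0.49 in Ctrl and -0.36 in E07 mice, with overlapping ranges. Against Lgals3bp and Lgals3, Lgals9 did not stand apart in this way. The log2 ratio of Lgals9 to Lgals3bp had medians of 1.20 in HOCl, 1.28 in Ctrl and 1.17 in E07 mice. The log2 ratio of Lgals3 to Lgals9 had medians of 0.29, 0.23 and 0.33 in the same groups. The log2 ratio of Lgals3 to Lgals8 had medians of 2.57 in the HOCl mice and 1.74 in the BPR21 mice.

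**Figure D3:**
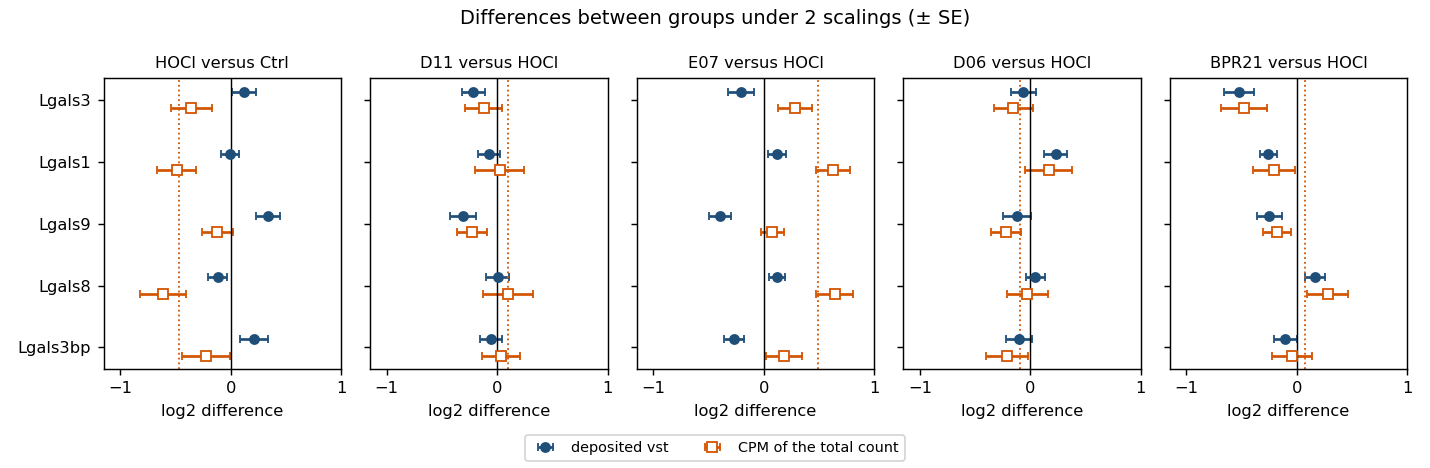
Log2 difference of each gene in 5 comparisons, with bars for 1 SE, from the vst values (filled circles) and from CPM of the total count (open squares); the dotted line is the median of all genes under total-count scaling. The 2 scalings part most in HOCl versus Ctrl and in E07 versus HOCl, by about the distance of the dotted line from 0.

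Several marker lists moved in the same direction as Lgals9 in the vst values of these comparisons. Of all genes, 4.79% were called higher in HOCl than in Ctrl mice and 7.01% lower in E07 than in HOCl mice. Of 34 erythroid markers, 26 were called higher and none lower in HOCl than in Ctrl mice, with a median difference of 1.18. In the E07 mice 27 of the 34 were lower than in the HOCl mice and none higher, with a median of -1.14. Their summed level was 89030 to 190500 CPM in the HOCl mice, 54230 to 114200 CPM in the E07 mice and 37570 to 115300 CPM in the Ctrl mice. Of 13 platelet markers, 6 were called higher in HOCl than in Ctrl mice and 11 lower in E07 than in HOCl mice. Their summed level had medians of 5290 CPM in HOCl, 4452 in Ctrl and 5141 in E07 mice. Of 14 neutrophil markers, 3 were called higher in HOCl than in Ctrl mice and 2 lower in E07 than in HOCl mice. Their summed level ran the other way, with medians of 4800 CPM in HOCl, 5755 in Ctrl and 5297 in E07 mice. Of 29 interferon-stimulated genes, 5 were called higher in HOCl than in Ctrl mice and 9 lower in E07 than in HOCl mice, with medians of 0.13 and -0.20. Of 14 B cell markers, 11 were called higher in E07 than in HOCl mice, beside 92 of all 10508 genes. The part of these lists in the Lgals9 differences was not tested.

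Variation between mice of the same group was then compared among the members, over 70 mice with each group's mean removed. Of the 10 pairs of members, 1 passed the permutation test after Benjamini-Hochberg adjustment over the 10 pairs. Lgals9 and Lgals3bp rose and fell together, with Pearson's r = 0.53 (adjusted permutation p = 1e-04, the smallest that 100000 resamples give after adjustment) and Spearman's rho = 0.50 (adjusted permutation p = 2e-04). Without the 2 mice farthest from the median of Lgals9, r was 0.64. Under total-count scaling r was 0.60. The other 9 pairs had r between -0.29 and 0.18, with adjusted permutation p from 0.107 to 0.986. Under total-count scaling all 10 pairs passed, with r from 0.35 to 0.70.

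**Figure D4:**
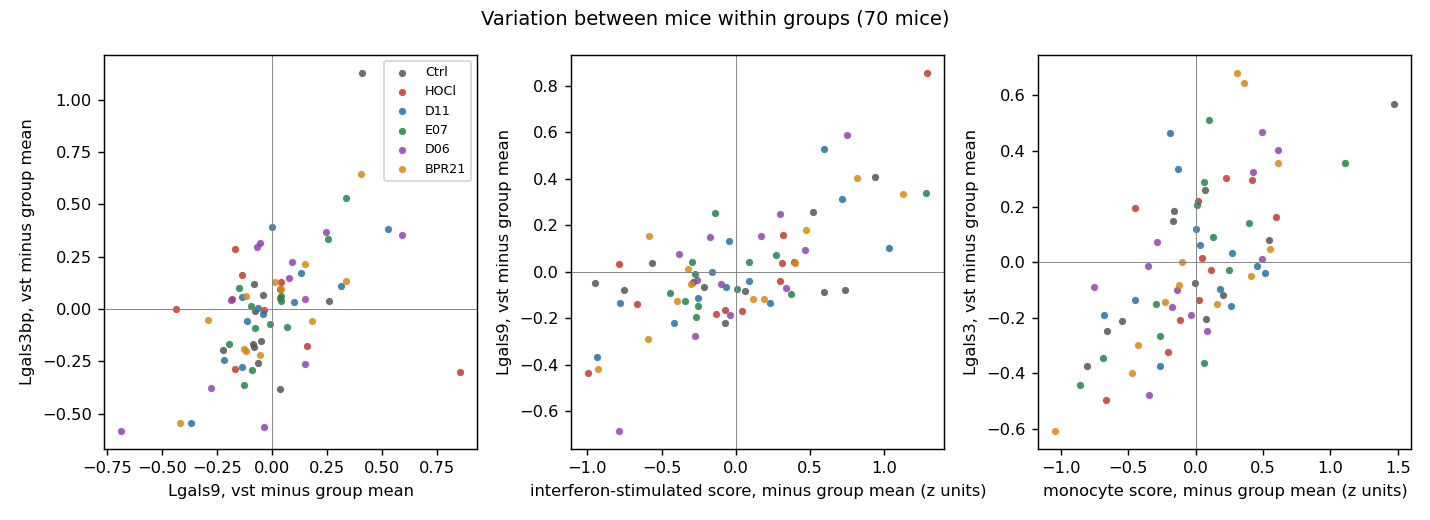
Values of 70 mice after removing their group's mean, 1 point per mouse and 1 colour per group: Lgals3bp against Lgals9 (r = 0.53), Lgals9 against the interferon-stimulated score (r = 0.70) and Lgals3 against the monocyte score (r = 0.65). HOCl mouse 7 lies far to the right in the panel of Lgals3bp against Lgals9, with Lgals3bp below its group's mean.

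The members followed different scores of blood cells within groups. A score was the mean of the standardized values of a list, and 50 pairs of a member and a list were tested and adjusted together. Scores and members come from the same libraries and share their scaling. Under total-count scaling most of the 50 pairs passed, so a high r there does not single out a member or a list. The interferon-stimulated score, for example, then had r = 0.69 with Lgals8, 0.53 with Lgals1 and 0.51 with Lgals3.
Lgals3 followed the myeloid scores, with r = 0.65 for the monocyte score (rho = 0.63) and r = 0.66 for the neutrophil score (rho = 0.63), both with an adjusted permutation p of 8.3e-05. Under total-count scaling these were 0.84 and 0.70. Without the 2 farthest mice, they were 0.61 and 0.56. Lgals3 ran against the T cell score at r = -0.56 (rho = -0.56, adjusted permutation p = 8.3e-05), which turned to 0.48 under total-count scaling.
Lgals9 followed the interferon-stimulated score at r = 0.70 (rho = 0.59, adjusted permutation p = 8.3e-05), with 0.72 under total-count scaling and 0.65 without the 2 farthest mice. It followed the erythroid score at r = 0.73 (rho = 0.66, adjusted permutation p = 8.3e-05), and this turned to -0.39 under total-count scaling.
Lgals3bp followed the platelet score at r = 0.63 (rho = 0.55, adjusted permutation p = 8.3e-05), with 0.61 under total-count scaling and 0.57 without the 2 farthest mice. It also followed the interferon-stimulated score at r = 0.49 (rho = 0.42, adjusted permutation p = 0.000357), with 0.55 under total-count scaling. With the erythroid score Lgals3bp had r = 0.40 (rho = 0.37, adjusted permutation p = 0.00467), which turned to -0.34 under total-count scaling, as for Lgals9.
In the vst values, Lgals1 and Lgals8 followed none of the lists as closely. The largest value of Lgals1 was with the NK cell score, at r = 0.39 (adjusted permutation p = 0.0063) and rho = 0.29 (adjusted permutation p = 0.0708). Without the 2 farthest mice that r was 0.23 (adjusted permutation p = 0.150). The largest value of Lgals8 was with the erythroid score, at r = -0.31 (adjusted permutation p = 0.0403) and rho = -0.25 (adjusted permutation p = 0.150). Under total-count scaling their values were larger, with 0.79 for Lgals1 with both the NK cell and the T cell score, 0.75 for Lgals1 with the monocyte score and 0.73 for Lgals8 with the T cell score.

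**Figure D5:**
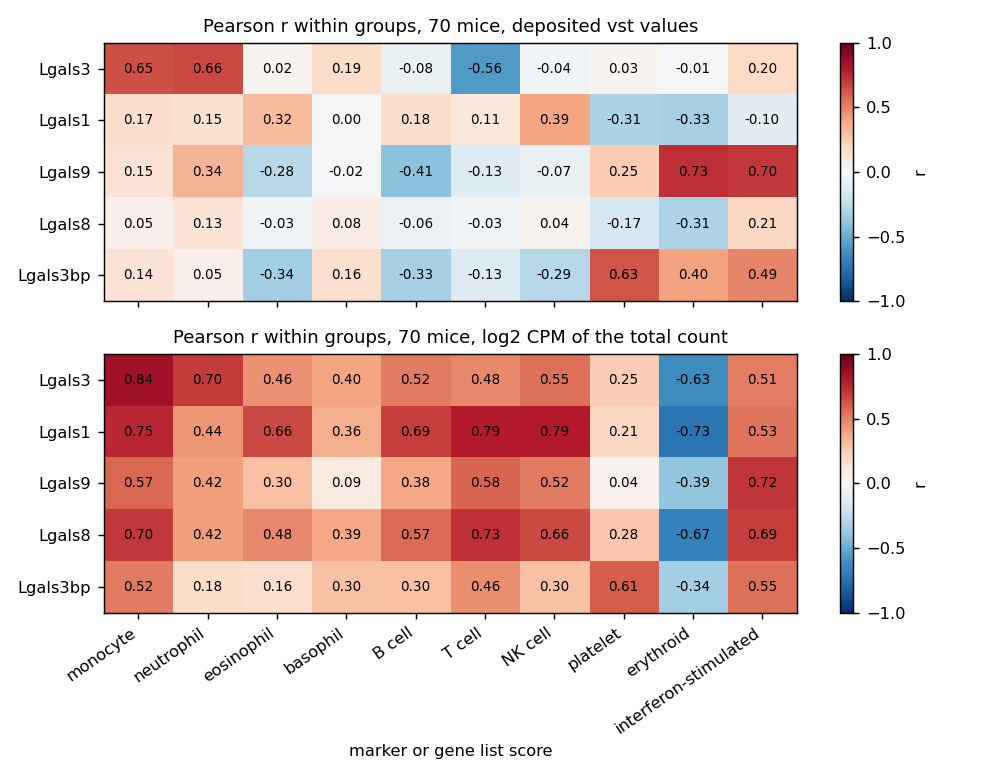
Pearson's r of each gene with 10 list scores over 70 mice after removing group means, from the vst values (upper panel) and from log2 CPM of the total count (lower panel), on a colour scale from -1 to 1. Lgals3 with monocyte and neutrophil scores, Lgals9 with the interferon-stimulated score and Lgals3bp with the platelet score are high in both panels, while the erythroid values of Lgals9 and Lgals3bp change sign. In the lower panel all values outside the erythroid score are positive.

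The genes of the whole table whose values ran closest to each member within groups, over the same 70 mice, were named by the highest r, as a description. For Lgals3 they were Ifitm2 (r = 0.78), an interferon-induced membrane protein, S100a11 (0.77), a calcium-binding protein, and Tyrobp (0.76), the DAP12 adaptor of myeloid and NK cell receptors. For Lgals1 they were Psmb1 (0.66), Psma4 (0.64) and Psma7 (0.58), which are all subunits of the core proteasome. For Lgals9 they were Glul (0.82), glutamine synthetase, Ube2h (0.81), a ubiquitin-conjugating enzyme, and Tax1bp1 (0.80), an autophagy receptor. For Lgals8 they were Mdm4 (0.62), a p53 regulator, Ddx5 (0.56), an RNA helicase, and Zfp668 (0.54), a zinc finger protein. For Lgals3bp they were Vwf (0.75), Itga2b (0.71) and Itgb3 (0.70), the von Willebrand factor and the 2 chains of the platelet fibrinogen receptor. Under total-count scaling, r was 0.06 for Glul, 0.38 for Ube2h and -0.04 for Tax1bp1 with Lgals9, whereas the 3 neighbours of Lgals3bp kept values from 0.71 to 0.75.

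Of the other galectin genes, Lgalsl had a CPM like that of Lgals8 and the rest had lower CPM, without scaling to gene length. Lgals4 had 1.21 to 10.4 CPM and was not called in any of the 15 pairs. The galectin-like gene Lgalsl had 10.4 to 64.8 CPM. It was called higher in D06 than in Ctrl mice (log2 difference 0.66, SE 0.13, limma's FDR 0.00156), with 10 of 12 D06 mice above the highest Ctrl mouse. It was also higher in D06 than in E07 mice (0.69, SE 0.11, limma's FDR 8.98e-05) and in BPR21 than in E07 mice (0.46, SE 0.12, limma's FDR 0.0203), and lower in E07 than in D11 mice (-0.43, SE 0.12, limma's FDR 0.032). Grifin, which encodes a galectin-related lens protein, had at most 23 counts in any mouse and was not called in any pair. Lgals2, Lgals7 and Lgals12 had any count in 3, 9 and 4 of 71 mice.

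Genes tied to galectin-3 were then read as a list. The study drew up Gal-3 interactants from interaction databases, and those at the cell surface or outside the cell came to 141 genes, of which 77 are in the vst table. Between HOCl and Ctrl mice 5 of 77 were called higher and none lower, 6.49% beside 4.79% of all genes called higher, with a median difference of 0.02 beside -0.02. Those with the largest change were Apob (1.21, SE 0.36, limma's FDR 0.0423), the apolipoprotein of low-density lipoprotein, Bsg (1.07, SE 0.24, limma's FDR 0.00869), basigin, and Serinc1 (0.67, SE 0.17, limma's FDR 0.018), a serine incorporator. Apob lay at the lowest value of the table, 6.06, in at least 1 mouse of each group.
Bsg ranged from 11.57 to 14.39 in the HOCl mice with a median of 12.90, and from 11.09 to 13.04 in the Ctrl mice with a median of 11.64. In the E07 mice it ranged from 11.23 to 12.39 with a median of 11.61. The HOCl mice stood above both other groups with overlap.
Between E07 and HOCl mice 9 of 77 were called lower and none higher, 11.7% beside 7.01% of all genes called lower, with a median of -0.09 beside 0.02. The largest were Bsg (-1.07, SE 0.21, limma's FDR 0.00101), Serinc1 (-0.77, SE 0.16, limma's FDR 0.00122) and App (-0.70, SE 0.11, limma's FDR 0.000129), the amyloid precursor protein. Itgb3, a neighbour of Lgals3bp above, and Cd47, the ligand of SIRP-alpha, were among the 9. The summed level of the 77 genes ran the other way, with medians of 5704 CPM in HOCl, 6966 in Ctrl and 6919 in E07 mice.
App was the interactant called against HOCl in 3 of the 4 agent groups. It ranged from 8.77 to 9.65 with a median of 9.28 in the HOCl mice. In the D11 mice it ranged from 8.12 to 8.94 with a median of 8.65, and in the D06 mice from 7.89 to 9.39 with a median of 8.61. Its difference from HOCl was -0.75 in D11 mice (SE 0.11, limma's FDR 0.00287) and -0.72 in D06 mice (SE 0.15, limma's FDR 0.0402), and it was the only interactant called in these 2 comparisons, 1.3% of 77 in each, beside 0.0571% of all genes for D11 and 0.133% for D06. In the Ctrl mice it ranged from 8.37 to 9.88 with a median of 8.99, and in the BPR21 mice from 8.15 to 9.92 with a median of 8.47. The 3 differences were taken against the same HOCl mice.
In BPR21 mice 3 of 77 were called lower than in HOCl mice, 3.9% beside 0.4% of all genes called lower: Colec12 (-0.67, SE 0.11, limma's FDR 0.00472), a scavenger receptor, Ptpro (-0.59, SE 0.11, limma's FDR 0.011), a receptor tyrosine phosphatase, and Cd68 (-0.51, SE 0.12, limma's FDR 0.0378), a macrophage and monocyte marker. Beside these 3, monocyte markers were lower in the same mice, as given for Lgals3.

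Enzymes that build or cap the sugars bound by galectins were read in the same way, with 34 of 37 listed genes in the vst table. St3gal2, a sialyltransferase that caps galactose, was called higher in HOCl than in Ctrl mice (0.68, SE 0.15, limma's FDR 0.00638) and lower in E07 than in HOCl mice (-0.71, SE 0.14, limma's FDR 0.000903). It ranged from 8.17 to 9.54 in the HOCl mice with a median of 8.77, from 7.68 to 8.59 in the Ctrl mice with a median of 8.02 and from 7.57 to 8.48 in the E07 mice with a median of 8.00. B3gnt5, which starts lactosyl chains on glycolipids, was called higher in E07 than in HOCl mice (0.43, SE 0.10, limma's FDR 0.00577). No other gene of the list was called in these 2 comparisons, so that 2.94% of the list was called in the first, beside 4.96% of all genes, and 5.88% in the second, beside 7.89%. None was called between D11, D06 or BPR21 and HOCl mice.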

How the data were processed

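Whole blood of 71 mice was sequenced after poly A selection and globin depletion with a strand-specific kit. Per the study's methods, reads were trimmed with Cutadapt, aligned with STAR to mm39 and counted with featureCounts. The deposited raw counts per gene are whole numbers without normalization. The authors transformed counts with the variance-stabilizing transformation of DESeq2, and the deposited vst values are on a log2 scale for 10508 genes in 70 mice, after non-coding and low genes had been removed. The vst table leaves out HOCl mouse 8, which is in the count table. Groups were read from the sample titles, since the characteristics describe Ctrl mice as HOCl mice too. Of the vst genes, 10503 were matched to the count table. Positions and exonic lengths came from GENCODE gene models on GRCm39.

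Each pair of groups was fitted alone on vst values by limma 3.58.1 (R 4.3.3), without covariates, and FDR was taken over all genes. A call needed an FDR of at most 0.05 and a fold of at least 1.3. Correlations over mice used 100000 permutations after removing group means. The alternatives were FDR alone, all 6 groups in 1 fit, log2(CPM + 1) of the total count and median centring. Others were limma with trend and robust settings and the mouse number as a block. On counts, edgeR 4.0.16 and DESeq2 1.42.0 were run, and 3 other filters on low counts were tried. Single HOCl or Ctrl mice were also left out in turn, but no mouse of an agent group. Comparisons between agents had no such fits. Leaving out single Ctrl mice, and edgeR without HOCl mouse 8, were added after seeing the data. Scripts were tested on simulated data. The genes named are the 5 members, the 3 nearest genes of each, other galectin genes with any count, and up to 3 called genes per direction of each list and comparison; Itgb3 and Cd47 were named after their values were seen. The members, lists and tests were chosen with earlier results of these data known. Library totals of 11932855 to 15948972 counts set the precision. RefSeq promoter windows, taken from a table on GRCm38.p6, were placed on GRCm39 by their single exact match, and 4 of the 5 members had one. Fold-change tables of the study were not used.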

Additional observations from a re-analysis of the deposited data

Results flagged for a closer look

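Lgals1 differed between the effects of 2 agents measured against the same HOCl mice. The effect of BPR21 less that of E07 was -0.38 on the log2 scale (SE 0.08, limma's FDR 0.0156), which equals the direct difference between the BPR21 and E07 mice, and 12 of 12 BPR21 mice lay below the E07 median. Its cause was not tested.

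Reads were also counted for 3 galectin genes outside the vst table. The highest count of Lgals2 in any mouse was 20, in a D11 mouse, with none in the Ctrl mice. The highest count of Lgals7 was 15, in an HOCl mouse, against at most 4 in the Ctrl mice. The highest count of Lgals12 was 17, in an E07 mouse, with none in the Ctrl mice.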

How the results depend on the processing

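The call of Lgals9 between E07 and HOCl mice was kept at -0.44 to -0.38 (FDR from 0.00297 to 0.0322) in the alternatives other than total-count scaling and leaving out HOCl mouse 7. No E07 mouse was left out in turn. Under CPM of the total count the sign turned for 31 of the 75 member differences, of which 26 were called under neither scaling. The other 5 were Lgals9 in E07 versus HOCl (0.079), Lgals3 in D06 versus Ctrl (-0.51), and Lgals3 (-0.44), Lgals1 (-0.46) and Lgals3bp (-0.39) in D06 versus E07. The sign also turned for the correlations of Lgals3 with Lgals8 (0.585), of Lgals1 with Lgals9 (0.519) and Lgals3bp (0.354), and of Lgals8 with Lgals9 (0.625) and Lgals3bp (0.461). With the list scores it turned for Lgals3 with B cells (0.523), T cells (0.481) and NK cells (0.549), Lgals1 with platelets (0.209) and interferon-stimulated genes (0.534), and Lgals9 with eosinophils (0.300), B cells (0.384), T cells (0.580), NK cells (0.519) and erythroid cells (-0.392). The same held for Lgals8 with eosinophils (0.481), B cells (0.569), T cells (0.731) and platelets (0.280), and for Lgals3bp with eosinophils (0.164), B cells (0.299), T cells (0.462), NK cells (0.296) and erythroid cells (-0.343). Of the correlations, 10 of 10 pairs of members and 45 of 50 pairs with a list passed under this scaling. Of all 10503 genes tested under this scaling, 327 were called higher and 5134 lower in HOCl versus Ctrl. They were 6561 and 324 in E07 versus HOCl, 292 and 6750 in D06 versus Ctrl, and 9 and 669 in BPR21 versus Ctrl. In BPR21 versus E07 they were 152 and 4661, in E07 versus D11 they were 4513 and 152, and in D06 versus E07 they were 305 and 7487. The counts of members, interactants and glycan enzymes under this scaling stand beside these. The number of members called was 2 in HOCl versus Ctrl, E07 versus HOCl, D06 versus Ctrl, BPR21 versus Ctrl and BPR21 versus E07. It was 3 in E07 versus D11 and 4 in D06 versus E07. By FDR alone it was 2 in E07 versus HOCl and 1 in BPR21 versus E07. With all 6 groups in 1 fit it was 1 in BPR21 versus HOCl, Ctrl and D06, and with DESeq2 1 in BPR21 versus HOCl, E07 and D06. It was 1 in BPR21 versus E07 with edgeR under each filter, and 1 in BPR21 versus D06 with edgeR and after median centring. Only HOCl and Ctrl mice were left out, 1 at a time, and no mouse of an agent group was. The number of members called then ranged from 0 to 1 in HOCl versus Ctrl, E07 versus HOCl, BPR21 versus HOCl and BPR21 versus Ctrl. Lgals9 in HOCl versus Ctrl was called without HOCl mouse 1 (0.38, FDR 0.0287) and without Ctrl mouse 4 (0.38, FDR 0.0325), Lgals3 in BPR21 versus HOCl without HOCl mouse 11 (-0.57, FDR 0.0387) and Lgals3 in BPR21 versus Ctrl without Ctrl mouse 12 (FDR 0.0474). Interactants called under total-count scaling were 34 in HOCl versus Ctrl, 39 in E07 versus HOCl and 0 for D11, D06 and BPR21; 3 in HOCl versus Ctrl with limma's trend and robust settings; 4 for D11, 3 for D06 and 5 for BPR21 with DESeq2; 14 for E07 by FDR alone; 5 for BPR21 with all 6 groups; and 0 for D06 with edgeR without HOCl mouse 8. Leaving out single mice gave 2 to 7 in HOCl versus Ctrl and 0 to 1 for D06. Glycan enzymes called were 20 in HOCl versus Ctrl and 26 in E07 versus HOCl under total-count scaling; for D11 2 with edgeR and with DESeq2 and 1 with edgeR at 10 counts, with filterByExpr and without HOCl mouse 8; 1 for D06 with DESeq2; and 1 to 2 for E07 without single mice. Mouse numbers were not used to pair the mice in the main fits. In no pair of groups did every same-numbered pair correlate above 0.1, while 7 of 11 did in E07 versus Ctrl. In every comparison but BPR21 versus D06, same-numbered pairs had a higher mean r than other pairs. The mean r of same-numbered pairs ran from 0.0004 in BPR21 versus D06 to 0.146 in E07 versus Ctrl. For other pairs it was 0.0014 and -0.0097 in these 2 comparisons. Whether mouse number marks any shared handling was not tested. With the replicate block, interactants called fell to 0 in HOCl versus Ctrl and 0 in D06 versus HOCl, Lgals9 in E07 versus HOCl stayed called (-0.38, FDR 0.0322), and the member counts were the same in all 15 pairs of groups. The causes of these changes were not tested. Depth limits what can be said of Grifin, Lgals2, Lgals7 and Lgals12, which had at most 23 counts in any mouse.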
